A study of Rattus norvegicus with 6 samples.

Results

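Interferon response genes are genes whose transcription interferons switch on, and 29 of them were followed here in rat renal cortex. They were taken by name, 21 as typical targets of type I interferon and 8 as typical targets of interferon gamma, and each was matched to non-control array probes through the RefSeq accession of the probe. A probe was found for 28 of the 29 genes, 45 probes in all, out of 15284 gene symbols on the array; the RNA sensor Rigi had no matched probe. Ifit1 had a probe that was well above background on only 1 of 3 arrays in each group, which left 27 genes for testing, 19 type I and 8 gamma-type, among 32428 features.

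The arrays came from 6 male Sprague-Dawley rats, 3 given corn oil, the vehicle, and 3 given o-nitroanisole at 400 mg/kg/day, both for 4 weeks. o-Nitroanisole is a nitroaromatic ether used in making dyes. The animals were bought from 1 breeder at an age of 5 weeks and had the same basal diet, and no genetic change is named for either group. The labels call the 3 samples of each group biological replicates and do not name the route of dosing, and the tissue is whole cortex with all of its cell types.

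Type I interferons bind the receptor made of Ifnar1 and Ifnar2, and the kinases Jak1 and Tyk2 then activate Stat2. With Irf9 it is part of a complex that binds the interferon-stimulated response element (ISRE) in target promoters. Interferon gamma binds Ifngr1 and Ifngr2 and acts through the gamma-activated site (GAS). Uninfected tissue keeps a low standing level of many of these transcripts, and in kidney both tubular cells and resident macrophages can make them.

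The promoters show how far the list shares these elements. RefSeq promoter windows (assembly GRCr8, 250 bases before to 50 bases after the gene start) were at hand for 22 of the 29 genes. An ISRE, searched on both strands as GAAA, any 2 bases and GAAA, stood in 14 of the 22 windows (63.6%) against 3.92% of 33469 windows of the same length. It was found in 10 of 14 type I windows and 4 of 8 gamma-type windows, and the shorter core GAAANNGAA, also on both strands, gave the same counts, against 9.71% of all windows. A GAS, searched as TTCNNNGAA, which reads the same on both strands, stood in 8 of 22 (36.4%) against 8.87% of all windows. The shorter core lies inside the ISRE, and in Bst2 a GAS match starting 137 bases upstream overlapped the ISRE match starting 131 bases upstream. A match of letters is a description and not a shown binding site.

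The 100 bases just before the gene start are printed below, 5′ to 3′ on the gene's strand with the ISRE in capitals, for 6 genes with a match there. Oas1a and Oas1b are shown because they are close copies whose levels differed between animals in different ways. Irf7, Ifit3, Ifih1 and Gbp2 are shown because their levels moved as those of Oas1a did. A match and this movement did not always go together. Mx1 and Irf9 moved likewise with no ISRE match in their windows, and Ifi27 and Rsad2 had a match and did not. Whether a match bears on the movement was not tested. The Oas1a window is chr12:41330366-41330465 (plus strand), Oas1b chr12:41395853-41395952 (minus), Irf7 chr1:205800024-205800123 (minus), Ifit3 chr1:241527226-241527325 (plus), Ifih1 chr3:67683969-67684068 (minus) and Gbp2 chr2:234005627-234005726 (plus).
Oas1a: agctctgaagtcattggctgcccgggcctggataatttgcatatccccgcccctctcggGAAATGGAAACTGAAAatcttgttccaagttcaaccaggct
Oas1b: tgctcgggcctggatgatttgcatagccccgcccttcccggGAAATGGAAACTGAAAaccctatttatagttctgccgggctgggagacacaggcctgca
Irf7: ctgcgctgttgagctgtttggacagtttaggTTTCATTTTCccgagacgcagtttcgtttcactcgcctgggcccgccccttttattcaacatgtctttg
Ifit3: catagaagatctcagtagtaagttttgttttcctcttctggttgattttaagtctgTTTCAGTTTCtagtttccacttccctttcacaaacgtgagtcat
Ifih1: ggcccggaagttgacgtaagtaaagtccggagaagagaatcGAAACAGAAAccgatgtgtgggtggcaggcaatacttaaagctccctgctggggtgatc
Gbp2: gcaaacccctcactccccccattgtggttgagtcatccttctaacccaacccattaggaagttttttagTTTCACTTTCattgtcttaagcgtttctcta
In Oas1a and Oas1b the capitals hold 2 overlapping matches, which start 41 and 35 bases upstream in Oas1a and 59 and 53 bases upstream in Oas1b. The longest run of letters common to both windows is 20 bases and contains these matches. In Irf7, Ifit3 and Gbp2 the match lies on the other strand and reads as its reverse complement.

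Levels are log2 of the processed signal relative to the 75th percentile of that array, so 0 is the brightness of that percentile; each gene was read from its brightest probe and levels are compared only within a gene. Values are listed in the order of animals 1, 2 and 3 of a group. Between 66.4% and 71.5% of probes per array were well above background. All 14 proximal tubule markers and all 7 podocyte markers were tested, which required a probe well above background on all 3 arrays of a group. These genes mark kidney and cannot tell cortex from whole kidney. One slide held the corn oil arrays and another the o-nitroanisole arrays, so slide and treatment cannot be told apart. Corn oil animals carry the numbers of their scanner files, which the deposited value table gives in another order.

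For most interferon response genes, o-nitroanisole animals 1 and 2 each lay below every corn oil animal while animal 3 lay near or above corn oil levels, and no group difference passed the adjusted test. Of the 27 tested genes, 21 had a lower mean in o-nitroanisole than in corn oil, where 44% of all features did, and the median log2 difference was -0.39 against 0.03 over all features. None passed limma's adjusted p of 0.05; neither did any of the 32428 features (0%), and the smallest adjusted p among the 27 was 0.198. With limma's trend and robust options, which called 0.373% of features lower and 1.24% higher, none of the 27 passed either. At an unadjusted p under 0.05, 2 genes were lower (Oasl2 and Ifi44), where 7.12% of all features were, and 1 was higher (Cxcl11), where 11.8% were. Oasl2 and Ifi44 were also the 2 genes whose groups did not overlap with o-nitroanisole lower, beside 9.56% of features, and no gene lay wholly higher, beside 17.6%. In whole tissue, fewer cells of a type and less RNA per cell cannot be told apart.

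**Figure D1:**
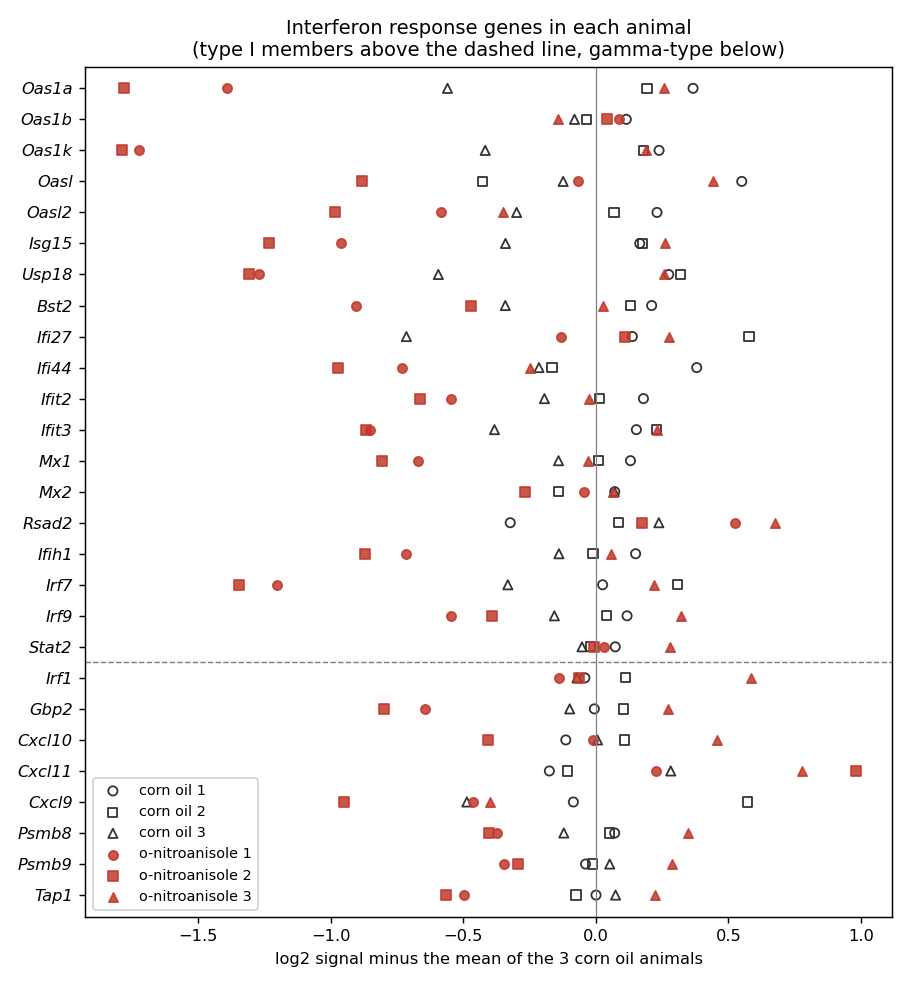
Log2 signal of each of the 27 tested genes in each animal, as the difference from the mean of the 3 corn oil animals (open symbols corn oil, filled symbols o-nitroanisole; circle, square and triangle are animals 1, 2 and 3). The circles and squares of o-nitroanisole lie to the left for most genes, near -1.7 to -1.8 for Oas1k, and the triangles lie near or to the right of 0.

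The oligoadenylate synthetases make a messenger that activates RNase L, which degrades RNA. Oas1k was at -2.05, -2.11 and -2.70 in corn oil and at -4.01, -4.08 and -2.10 in o-nitroanisole. Oas1a was at 0.95, 0.77 and 0.02 in corn oil and at -0.81, -1.20 and 0.84 in o-nitroanisole. In both genes o-nitroanisole animals 1 and 2 lay below all corn oil animals and animal 3 lay among them. Against the corn oil mean, Oas1k was 3.30-fold lower in animal 1 and 3.45-fold lower in animal 2, and Oas1a 2.62-fold and 3.43-fold lower. With animal 3 in the mean the group differences were -1.11 ± 0.57 (SE, n = 3 per group; limma adjusted p = 0.361) and -0.97 ± 0.57 (adjusted p = 0.418). Both were smaller than the ranges within o-nitroanisole, 1.98 for Oas1k and 2.04 for Oas1a. The other Oas1a probe gave -0.74.

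Oas1b behaved otherwise, at 5.82, 5.67 and 5.62 in corn oil and 5.79, 5.74 and 5.56 in o-nitroanisole. All 6 values lay close together, and the difference was 0.00 ± 0.09, although its promoter holds the same pair of overlapping ISRE matches as that of Oas1a. Oas1 genes are close copies of each other, and whether their probes cross-hybridise was not tested. Oasl2, a related synthetase, was at 0.35, 0.19 and -0.18 in corn oil and at -0.47, -0.87 and -0.24 in o-nitroanisole. All 3 o-nitroanisole animals were below all corn oil animals, animal 3 by a narrow margin, and the difference was -0.64 ± 0.21 (limma adjusted p = 0.198). Oasl, which lacks synthetase activity, was dim, well above background on 2 of 3 o-nitroanisole arrays, and its groups overlapped (-0.17 ± 0.40).

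Isg15, a ubiquitin-like protein that is attached to other proteins, was at 0.78, 0.79 and 0.28 in corn oil and at -0.35, -0.62 and 0.88 in o-nitroanisole. Usp18, which removes Isg15 and damps the type I receptor, was at -1.89, -1.85 and -2.76 in corn oil and at -3.44, -3.48 and -1.91 in o-nitroanisole. Both genes were lower in o-nitroanisole animals 1 and 2 than in any corn oil animal. Animal 3 was above all corn oil animals for Isg15 and among them for Usp18. Animals 1 and 2 were 1.95-fold and 2.35-fold below the corn oil mean for Isg15 and 2.41-fold and 2.48-fold below it for Usp18. The group differences were -0.65 ± 0.41 and -0.77 ± 0.50, smaller than the ranges within o-nitroanisole of 1.49 and 1.57. Neither passed the adjusted test (limma adjusted p = 0.450 and 0.454).

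The transcription factors split. Irf7, which drives interferon genes and rises with them, was at 1.23, 1.51 and 0.88 in corn oil and at 0.01, -0.14 and 1.43 in o-nitroanisole. Animals 1 and 2 were 2.30-fold and 2.54-fold below the corn oil mean and animal 3 lay among the corn oil animals (difference -0.78 ± 0.45, limma adjusted p = 0.408). Irf9, the DNA-binding subunit of the type I complex, showed a smaller spread, at -1.53, -1.61 and -1.81 in corn oil and -2.20, -2.04 and -1.33 in o-nitroanisole; animal 3 was the highest of all 6. Stat2, its partner, was at 2.10, 2.00 and 1.97 in corn oil and 2.06, 2.02 and 2.30 in o-nitroanisole. For Stat2 only animal 3 left the corn oil range, upward, and the difference was 0.10 ± 0.10. Irf1, an early target of interferon gamma, was at 1.84, 2.00 and 1.81 in corn oil and at 1.74, 1.82 and 2.47 in o-nitroanisole, again with animal 3 above all others (0.13 ± 0.20).

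Ifih1, the sensor of long double-stranded RNA also called MDA5, was at -3.07, -3.23 and -3.36 in corn oil and at -3.94, -4.09 and -3.16 in o-nitroanisole. Animals 1 and 2 were below the corn oil range and animal 3 within it, with a difference of -0.51 ± 0.25 (limma adjusted p = 0.349).

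Of the 8 tested antiviral effectors, 6 had a lower mean in o-nitroanisole. Ifit3, which binds foreign RNA with its relatives, was at -2.39, -2.31 and -2.93 in corn oil and at -3.39, -3.41 and -2.31 in o-nitroanisole. Mx1, a GTPase that blocks viruses, was at 1.88, 1.76 and 1.61 in corn oil and at 1.08, 0.95 and 1.72 in o-nitroanisole. Both were below the corn oil range in animals 1 and 2 alone, and the differences were -0.50 ± 0.35 and -0.50 ± 0.22 (limma adjusted p = 0.489 and 0.289). Ifit2 (-0.41 ± 0.19) showed the same split of animals, and Bst2 (-0.45 ± 0.27), the tether that holds budding virus at the cell surface, was lowest in animal 1. Ifi44 was at 0.59, 0.05 and 0.00 in corn oil and at -0.52, -0.76 and -0.03 in o-nitroanisole. Its groups did not overlap, with animal 3 just under the lowest corn oil animal, and the difference was -0.65 ± 0.24 (limma adjusted p = 0.238). The other Ifi44 probes gave -0.36 and -0.38.

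The brightest probes of the remaining effectors did not show this split. Mx2 was at 6.31, 6.10 and 6.31 in corn oil and 6.20, 5.97 and 6.31 in o-nitroanisole on its brightest probe (-0.08 ± 0.11), while its other probe differed by -1.49. That probe, dim on 1 o-nitroanisole array, was at -3.38, -3.29 and -1.79 in corn oil and -4.48, -5.52 and -2.93 in o-nitroanisole, and there animals 1 and 2 lay below every corn oil animal and animal 3 among them. Rsad2, or viperin, was at 0.28, 0.69 and 0.85 in corn oil and at 1.13, 0.78 and 1.29 in o-nitroanisole. It was higher on average in o-nitroanisole, by 0.46 ± 0.19, with groups that overlapped through animal 2 (limma adjusted p = 0.280). Another Rsad2 probe gave 0.37. The last Rsad2 probe gave 1.47 but was well above background on only 1 of 3 corn oil arrays. It was tested only through its o-nitroanisole level, so its sign adds no support. Ifi27 was at 4.83, 5.27 and 3.98 in corn oil and 4.56, 4.80 and 4.97 in o-nitroanisole; here the corn oil animals were the more spread (0.08 ± 0.34). Ifit1 was at -7.97, -5.75 and -7.05 in corn oil and -7.31, -5.70 and -5.56 in o-nitroanisole, values at or near background from which no difference is read.

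Among the gamma-type genes, those of antigen processing moved together. Psmb8 and Psmb9 are subunits of the immunoproteasome, and Tap1 carries its peptides to class I molecules. Psmb8 was at 0.82, 0.80 and 0.63 in corn oil and at 0.38, 0.35 and 1.09 in o-nitroanisole. Psmb9 was at 1.28, 1.30 and 1.37 in corn oil and at 0.97, 1.02 and 1.60 in o-nitroanisole. Tap1 was at -1.62, -1.70 and -1.55 in corn oil and at -2.12, -2.19 and -1.40 in o-nitroanisole. In all 3 genes o-nitroanisole animals 1 and 2 were below and animal 3 above every corn oil animal, and the group differences were small, at -0.14 ± 0.22, -0.12 ± 0.18 and -0.28 ± 0.22 (limma adjusted p = 0.756, 0.757 and 0.534). Psmb9 and Tap1 lie head to head, and their promoter windows overlap by 44 bases. Gbp2, a guanylate-binding GTPase of host defence, was at 0.97, 1.08 and 0.88 in corn oil and at 0.33, 0.18 and 1.25 in o-nitroanisole, the same order (-0.39 ± 0.29).

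The CXCR3 chemokines, which attract activated T cells, did not share 1 pattern. Cxcl10 was at -0.34, -0.12 and -0.22 in corn oil and at -0.24, -0.63 and 0.23 in o-nitroanisole, with animal 2 lowest and animal 3 highest of all (0.01 ± 0.22). Cxcl9 was at -4.10, -3.44 and -4.50 in corn oil and -4.48, -4.96 and -4.41 in o-nitroanisole; animal 2 alone was below the corn oil range (-0.60 ± 0.30, limma adjusted p = 0.346). Cxcl11 was at -0.61, -0.54 and -0.15 in corn oil and at -0.21, 0.55 and 0.34 in o-nitroanisole. Cxcl11 was highest in animal 2, the animal that was lowest for most of the other genes, and its difference of 0.66 ± 0.23 was the highest of the 27 (limma adjusted p = 0.212), with animal 1 inside the corn oil range.

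**Figure D2:**
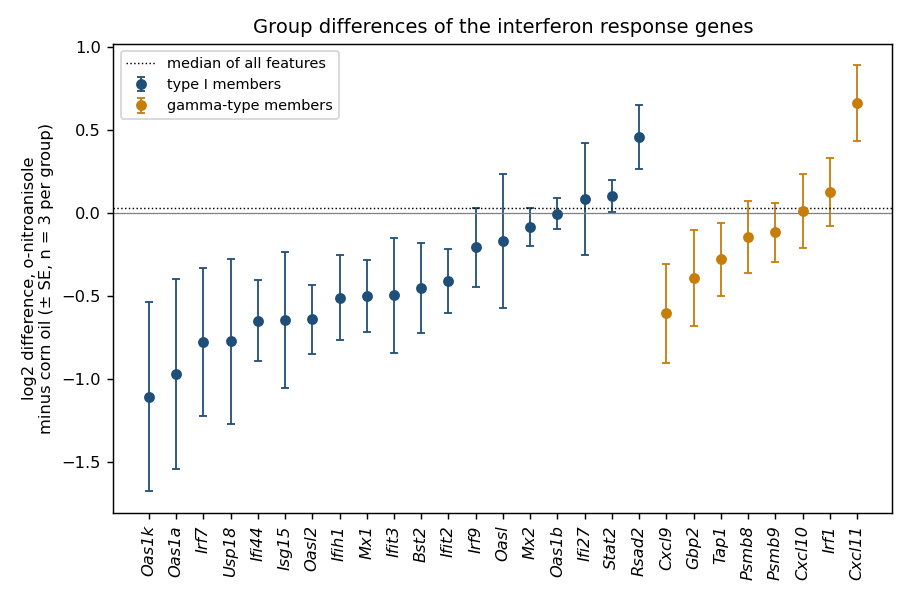
Log2 difference of each tested gene, o-nitroanisole minus corn oil, as point with its moderated standard error (n = 3 per group), type I genes left and gamma-type genes right; the dotted line is the median of all features. Differences run from -1.11 for Oas1k to 0.66 for Cxcl11, and the widest bars are those of Oas1k and Oas1a, at 0.57 each.

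Set by class, 16 of 19 type I genes and 5 of 8 gamma-type genes had a lower mean in o-nitroanisole, with median differences of -0.50 and -0.13. The difference between the classes was not tested. Both classes showed the same split of animals. The median of the type I genes lay -0.67, -0.87 and 0.22 from the corn oil mean in o-nitroanisole animals 1, 2 and 3, and that of the gamma-type genes -0.36, -0.41 and 0.32. Over all features the same medians were 0.02, 0.04 and 0.04, with no such split. Leaving out o-nitroanisole animal 3 took the medians to -0.74 and -0.35, and 17 of 27 genes were then lower at an unadjusted p under 0.05, beside 6.7% of features, with none past the adjusted threshold. Leaving out o-nitroanisole animal 1 or animal 2 took the gamma-type median to -0.02 in each case, and no gene was then lower at an unadjusted p under 0.05 (beside 6.12% and 5.91% of features). The same count was 0 without corn oil animal 1 (5.62%) or animal 2 (6.9%) and 3 without corn oil animal 3 (5.64%).

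Counted per animal, o-nitroanisole animal 1 was below all 3 corn oil animals for 18 of 27 genes, where 27.5% of all features were, and animal 2 for 21 of 27, where 25.4% were. Animal 3 was below all of them for 3 of 27, where 25.8% were, and above all of them for 12 of 27, where 37.3% were. Animals 1 and 2 were each above all of them for 1 gene, Rsad2 and Cxcl11, where 34% and 36.2% of features were. The 12 genes of animal 3 held 7 of the 8 gamma-type genes and 5 of the 19 type I genes. Animal 3 was the highest of its group for 25 of 27 genes, against 36.4% of features. The exceptions were Oas1b and Cxcl11. A smaller split ran through the corn oil animals: animal 3 of that group was the lowest for 20 of 27 genes, against 33.6% of features, among them 16 of the 19 type I and 4 of the 8 gamma-type genes. The median standard deviation within a group was 0.25 in corn oil and 0.42 in o-nitroanisole, where that of all features was 0.12 in each.

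**Figure D3:**
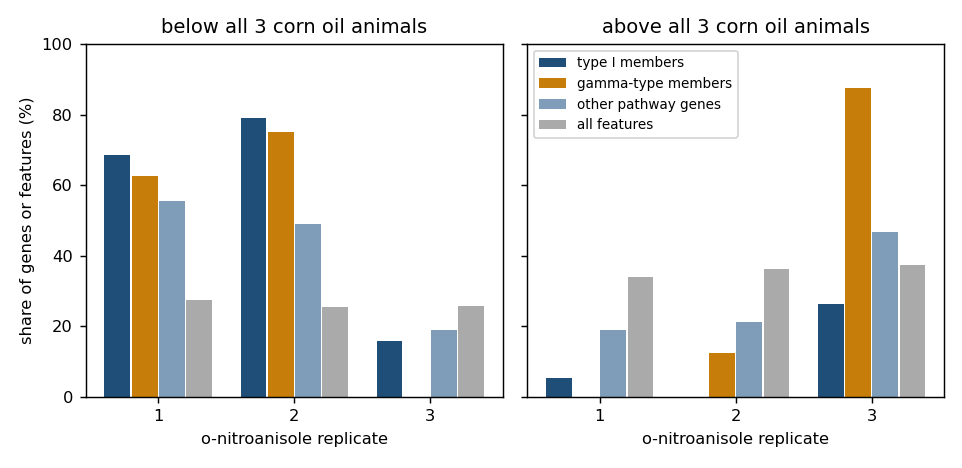
Share of type I genes (n = 19), gamma-type genes (n = 8), other pathway genes (n = 90) and all features (n = 32428), in percent, that lay below (left) or above (right) all 3 corn oil animals in each o-nitroanisole animal. Animals 1 and 2 have tall bars at left for both classes, 68.4% and 78.9% of type I genes, and animal 3 has its tallest bar at right, 87.5% of gamma-type genes.

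Within groups most type I genes moved together from animal to animal, and the gamma-type genes did so in o-nitroanisole only. With each group's mean removed, the median correlation over the 351 pairs of genes was 0.76 across the 6 arrays, which share these animals and their scaling. It was 0.80 within type I, 0.83 within gamma-type and 0.71 between the classes, against 0.04 for pairs of a listed gene with any other feature. In corn oil alone it was 0.81 within type I but 0.02 within gamma-type, against 0.03 for pairs with any other feature. The gamma-type genes varied little in corn oil, with a median standard deviation of 0.10, beside 0.30 for type I and 0.12 for all features. That left little movement to correlate in that group. In o-nitroanisole alone the median correlation was 0.88 within type I and 0.87 within gamma-type, against 0.07. Against the median of the other type I genes, Oas1a had the closest course (r = 0.999), and Isg15, Ifit2, Oas1k and Mx1 were each at 0.985 or above. Of the gamma-type genes, Psmb8 (0.979) and Gbp2 (0.948) lay closest to it. Rsad2 (0.21), Cxcl11 (-0.12) and Oas1b (-0.42) did not follow it. These are descriptions over 3 animals a group, in which 1 animal can set a correlation.

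Besides the listed genes, 90 further pathway genes were tested, 56 of them lower in mean and 34 higher, with a median difference of -0.03. None passed limma's adjusted p of 0.05; at an unadjusted p under 0.05, 6 were lower and 8 higher, beside 7.12% and 11.8% of all features. Among ligands, of which 3 of 14 were measurable, Il12a (0.37 ± 0.15, adjusted p = 0.252) had the smallest p; interferon gamma and beta were not among the 3. The receptor chains differed in direction: Ifngr2 was at 0.76, 0.93 and 0.80 in corn oil and 1.15, 1.21 and 1.19 in o-nitroanisole, without overlap (0.36 ± 0.07, adjusted p = 0.116), while Ifngr1 was lower without overlap (-0.32 ± 0.11, adjusted p = 0.219). Ifnar1 (-0.04 ± 0.08) and the kinase Jak1 (-0.05 ± 0.06) had overlapping groups, and Jak2, the kinase of the gamma receptor, was higher without overlap (0.17 ± 0.05, adjusted p = 0.185). Ifnar2 and Tyk2 had no matched probe.

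Of the 9 tested sensors and adaptors, Tlr7, a receptor for single-stranded RNA, had the smallest p (-0.67 ± 0.15, limma adjusted p = 0.128, dim on 1 o-nitroanisole array). Of the 9 inhibitors it was Nlrx1 (0.22 ± 0.07, adjusted p = 0.209). Other type I targets were lower for 20 of 27 genes, with a median of -0.09, and 18, 16 and 4 of them were below all corn oil animals in o-nitroanisole animals 1, 2 and 3, beside 27.5%, 25.4% and 25.8% of all features. In animal 3, 13 of the 27 were above all corn oil animals, beside 37.3%. Lgals3bp (-0.50 ± 0.20, adjusted p = 0.258) had the smallest p there, at 2.53, 2.42 and 2.36 in corn oil and 1.68, 1.75 and 2.39 in o-nitroanisole. Other gamma-type targets were lower for 19 of 31, with a median of -0.02. Below all corn oil animals were 18, 13 and 3 of the 31 in o-nitroanisole animals 1, 2 and 3, beside the same shares of all features. In animal 3, 16 of the 31 were above all corn oil animals, beside 37.3%. Their smallest p belonged to the class II gene RT1-Da, which was higher in every o-nitroanisole animal (0.35 ± 0.08, adjusted p = 0.129).

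Markers of immune cells were read beside these values. Of 20 macrophage and monocyte markers 16 were tested, 15 of them lower in mean, and their summed linear level, in units of the array's 75th percentile, was 123, 122 and 124 in corn oil and 99.8, 99.8 and 128 in o-nitroanisole. This sum showed the split of animals seen in the interferon genes, low in o-nitroanisole animals 1 and 2 and high in animal 3. It is weighted toward bright genes, most of all Lyz2, at 6.09, 6.18 and 6.13 in corn oil and 5.83, 5.82 and 6.12 in o-nitroanisole. Animal 3 was the highest of its group for 14 of the 16 markers, against 36.4% of features. Mrc1 (-2.09, -2.44 and -3.49 in o-nitroanisole) and Csf1r (-1.21, -1.10 and -1.28) were instead lowest in animal 3. Cd14 had the smallest p of the macrophage and monocyte list and was higher (0.51 ± 0.08, limma adjusted p = 0.098), and Marco was near background on all arrays. Siglec1, a macrophage lectin that interferon also induces, was lower in every o-nitroanisole animal (-2.38 ± 0.56, adjusted p = 0.138; dim on 1 of their arrays). The part of these cells in the interferon values was not tested.

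T and NK cell markers, 15 of 20 tested and 10 lower, summed to 2.77, 3.27 and 3.88 in corn oil and 2.61, 3.57 and 3.49 in o-nitroanisole, with overlapping groups. Single values weighed on these sums. In o-nitroanisole Gzmb was at -4.89, -0.58 and -4.33, and Cd8b at -3.51, -4.14 and -0.63. Each high value was far above every other animal for that gene. Klrb1c had the smallest p of the T and NK cell markers (-0.80 ± 0.25, limma adjusted p = 0.192), and Klrb1 and Ncr1 stayed near background on all arrays. Of the tested dendritic cell markers 4 of 5 were lower in mean (Clec9a -0.64 ± 0.11), with Xcr1 near background on all arrays. Of the B and plasma cell markers 3 of 3 were higher in mean, all with overlapping groups, and Blk was near background on all arrays. Cd79b had the smallest p of these (1.35 ± 0.81). It was well above background on only 1 of 3 corn oil arrays and was tested only through its o-nitroanisole level. Neutrophil markers summed to 0.345 to 0.394 in corn oil and 0.658 to 0.983 in o-nitroanisole (4 of 4 higher; S100a8 1.76 ± 0.27), with Cxcr2, Elane, Ngp, Ltf and Mmp8 near background on all arrays. Red blood cell markers summed to 430 to 499 and 670 to 819 (8 of 8 higher; Hbb 0.67 ± 0.10), with Rhag near background. Both of these sums were higher in all 3 o-nitroanisole animals, unlike the interferon genes. In the lists of resident kidney cells the smallest p belonged to Plvap of endothelium (0.24 ± 0.14), Slc22a8 of proximal tubule (0.31 ± 0.06), Slc4a9 of distal nephron and collecting duct (0.69 ± 0.10, with Pvalb near background) and Podxl of podocytes (0.39 ± 0.10), none past limma's adjusted threshold.

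**Figure D4:**
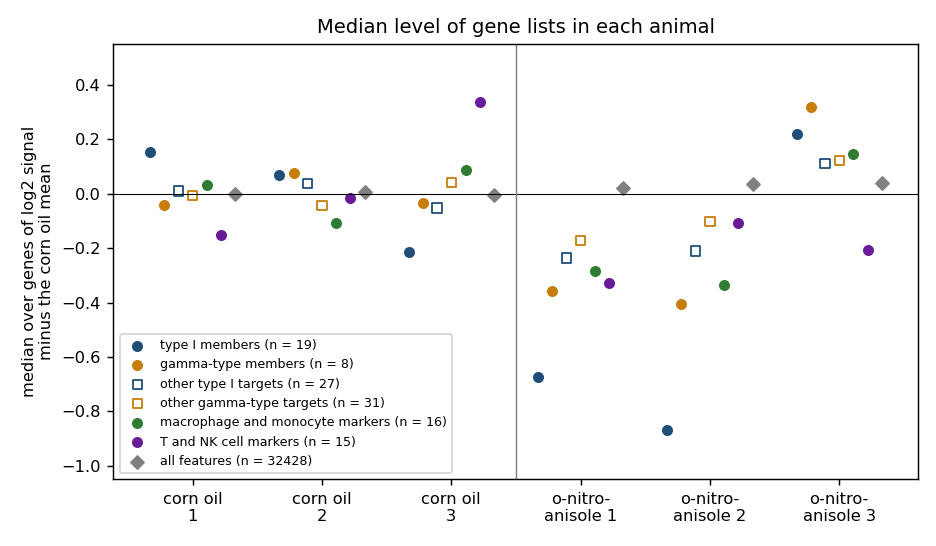
Median over the genes of a list of the log2 signal minus the corn oil mean, for each of the 6 animals; n is the number of tested genes or features in each list. The type I genes lie at -0.67, -0.87 and 0.22 in the o-nitroanisole animals, macrophage and monocyte markers at -0.28, -0.33 and 0.15, and all features near 0.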

How the data were processed

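The deposited scanner files hold spot intensity which, per the file headers, Agilent Feature Extraction had background-subtracted and detrended within each array, with no scaling between arrays (version 10.7, per the submitters' processing notes). In the deposited value table each value is a ratio, the processed signal over that array's 75th percentile, as checked within 1%. Its corn oil columns 1, 2 and 3 match the scanner files of corn oil replicates 3, 1 and 2, so the numbers of those animals are not settled; the groups are. Levels were computed here from the scanner files as log2 of the deposited processed signal relative to the 75th percentile of non-control probes, without outlier spots. A probe was tested if all arrays of 1 group or both had it well above background (41096 probes), the brightest probe stood for a gene, and unnamed probes were features of their own. Names came from RefSeq accessions through a GRCr8 gene table (27460 of 33356 accession-bearing probes). Groups were compared with limma 3.58.1 (lmFit and eBayes, R 4.3.3) and Benjamini-Hochberg adjustment over 32428 features; SE is limma's moderated SE. Plots and counts used Python 3.11.15. The fitting step was tested on simulated data.

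The members and gene lists were chosen with earlier results of these data known. All listed genes that a probe measures are named; of each pathway or marker list, the gene with the smallest p, the receptor chains, Jak1 and Tyk2, and markers at background; 1 gene that the rule also names is not reported here. Siglec1, Lyz2, Mrc1, Csf1r, Gzmb, Cd8b and the genes of the closing section were named after their values were seen. Alternatives (16 planned, 1 added after seeing the data) covered scaling, background correction, the dim filter, the probe rule, outlier spots, moderation, the value table, the replicate number and each array left out. The normexp alternative used the median signal with an offset of 50. With 3 animals against 3, an exact two-sided permutation test cannot go below p = 0.1, and the number of arrays limits the precision.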

Additional observations from a re-analysis of the deposited data

How the results depend on the processing

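None of the listed genes tested passed limma's adjusted threshold under any of the 17 alternatives run. Genes changed over all features numbered 115 under normexp background correction and 522 with trend and robust moderation (401 higher, 121 lower), and 0 to 4 with an array left out. Listed genes higher at an unadjusted p under 0.05 numbered 2 under normexp (14.3% of features) and under the mean of probes (11.2%). With trend and robust moderation they also numbered 2 (13%), and with an array left out 0 to 2 (8.38% to 11%). Those lower numbered 1 under the mean of probes (7.08%) and 0 to 17 with an array left out (5.62% to 6.9%). The count lower was 17 without o-nitroanisole animal 3 and 0 without corn oil animal 1 or 2 or o-nitroanisole animal 1 or 2. With an array left out the median difference lay between -0.74 and -0.33 for type I genes, -0.35 and -0.02 for gamma-type genes and -0.60 and -0.19 for all; under normexp it was -0.36, -0.11 and -0.23. Counts below all corn oil animals lay at 18 to 20, 21 to 23 and 3 to 8 for o-nitroanisole animals 1, 2 and 3. Signs turned for Ifi27 under quantile scaling (-0.012), for Oas1b under median scaling (0.0022), and under normexp for Oasl (0.012), Stat2 (-0.0070), Ifi27 (-0.065), Cxcl10 (-0.13) and Psmb9 (0.039); the cause was not tested. With an array left out, Oas1b ranged from -0.050 to 0.064, Oasl from -0.47 to 0.19, Cxcl10 from -0.21 to 0.22, Ifi27 from -0.27 to 0.37, Mx2 from -0.16 to 0.0096 and Irf1 from -0.10 to 0.26. Same-numbered samples of the groups correlated at 0.09, 0.06 and 0.03, so the numbers were not taken as pairs. With the replicate block 0 listed genes were lower at an unadjusted p under 0.05 (6.9% of features). With the numbers of the value table as the block 2 were (6.54% of features). Without the dim filter Ifit1 differed by 0.74 (adjusted p = 0.775). A slide block was not run, since no slide held both groups.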

Other observations

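Genes other than the 29 listed ones were ranked by how closely their within-group course followed the median of the type I genes, over the 6 arrays and among 1651 named genes with a within-group standard deviation of at least 0.3. The 25 closest, with correlations of 0.95 or above, held 3 genes of the wider pathway lists, Oas1i, Ifi27l2b and Epsti1, where 21 of the 1651 were in those lists. Of the 25, 14 had a lower mean in o-nitroanisole and 11 a higher one. In 2 of the latter, Ly6g5b (1.35 ± 0.64) and Gpatch2 (0.52 ± 0.24), the groups did not overlap, beside 17.6% of all features. The genes described next were chosen from the 25 after their values were seen. Rtp4 was at -0.21, -0.28 and -0.66 in corn oil and -1.49, -1.35 and -0.36 in o-nitroanisole. Apol9a was at -1.68, -1.60 and -2.17 in corn oil and -2.85, -2.91 and -1.97 in o-nitroanisole. Slfn4, a Schlafen gene of myeloid cells, was at -0.47, -0.89 and -1.44 in corn oil and -2.65, -2.98 and -1.33 in o-nitroanisole. In these 3 genes o-nitroanisole animals 1 and 2 were below all corn oil animals and animal 3 was within their range. The complement gene C1qa was among the 25 too, at 2.31, 2.00 and 1.91 in corn oil and 1.75, 1.64 and 2.37 in o-nitroanisole.

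Of the 5 class II genes tested, named here after their values were seen, 4 had non-overlapping groups with o-nitroanisole higher, beside 17.6% of all features. These were Cd74, Ciita, RT1-Bb and RT1-Da. RT1-Db1 had overlapping groups (0.13 ± 0.23), and none of the 5 passed the adjusted threshold. RT1-Bb was at 2.55, 2.54 and 1.96 in corn oil and 3.04, 3.26 and 2.88 in o-nitroanisole. RT1-Db1 was at 2.06, 2.11 and 2.88 in corn oil and 2.40, 2.57 and 2.47 in o-nitroanisole. Corn oil animal 3 stood apart in both, low for RT1-Bb and high for RT1-Db1, and it alone made the RT1-Db1 groups overlap. Cd74, the invariant chain, was at 4.44, 4.59 and 4.71 in corn oil and 5.04, 5.25 and 4.94 in o-nitroanisole (0.50 ± 0.11, limma adjusted p = 0.133). Ciita, its master regulator, was at -2.39, -2.24 and -1.96 in corn oil and -1.66, -1.52 and -1.92 in o-nitroanisole (0.49 ± 0.15, adjusted p = 0.187). For Ciita animal 3 lay only just above the highest corn oil animal. In Cd74 and Ciita o-nitroanisole animal 3, the highest animal for most listed interferon genes, was the lowest of its group. That held for RT1-Bb too, while RT1-Da and RT1-Db1 were lowest of the group in animal 1.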
